A study of Mus musculus with 6 samples.

Results

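The genes described here encode the mitochondrial respiratory chain, and they were taken from ear skin RNA-seq of mice lacking Ufl1 in the epidermis and of control mice. Members were chosen by a rule on annotation and name, with earlier results of these data known. The rule took every protein-coding gene of the mitochondrial chromosome. It also took every gene whose symbol follows the naming of complex I (Ndufa, Ndufb, Ndufc, Ndufs and Ndufv with a number), complex II (Sdha to Sdhd), complex III (Uqcr) or complex IV (Cox4 to Cox8 followed by a, b or c). The rule found 85 of the 54532 genes in the table. Of these, 13 were mitochondrially encoded and 72 were nuclear encoded, and the nuclear group held 65 protein-coding genes, 6 processed pseudogenes and Ndufb1-ps, which is annotated as a long non-coding RNA. By complex there were 7 mitochondrial and 39 nuclear genes for complex I, 4 nuclear genes for complex II, 1 and 10 for complex III, 3 and 19 for complex IV, and 2 mitochondrial genes for complex V, the ATP synthase. Ndufa4 and Ndufa4l2 were counted with complex IV, since Ndufa4 is a cytochrome c oxidase subunit despite its name. The pattern leaves out some subunits, among them Cox4i1, Cyc1 and Ndufab1, which are given at the end.

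The cKO libraries, 3 in number, came from mice of genotype Ufl1f/f KRT14Cre/+, with both Ufl1 alleles floxed and 1 copy of a keratin 14 Cre transgene. That promoter acts in basal keratinocytes and their epithelial descendants. The 3 control libraries came from Ufl1f/+ or Ufl1f/f mice, whose labels name no Cre. An effect of Cre itself therefore cannot be told apart from the loss of Ufl1. All mice were 3 months old, and total RNA came from whole ear skin, which also holds dermis, cartilage, fat, vessels and strips of muscle. Ufl1 is the ligase that attaches the ubiquitin-like protein UFM1 to its targets, many of them at the endoplasmic reticulum. Nothing in the labels says that each library came from its own animal, so the spread behind every p-value may be technical.

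The respiratory chain passes electrons from NADH (complex I) and succinate (complex II) through ubiquinone to complex III, then through cytochrome c to complex IV, which reduces oxygen. Complexes I, III and IV pump protons across the inner mitochondrial membrane, and the ATP synthase uses the resulting gradient. Its subunits come from both genomes: the mitochondrial chromosome encodes core membrane subunits, while the nucleus encodes the other subunits and the whole of complex II. Mitochondrial mRNAs are transcribed as long polycistronic precursors from both strands and cut apart mostly at the tRNAs between them. In skin, epidermal mitochondria are known from mouse studies to be needed for hair follicle growth and keratinocyte differentiation.

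Total counts were 18245575, 18212929 and 19050876 in cKO libraries 1 to 3, against 17256339, 18886858 and 20776539 in control libraries 1 to 3. Values of single libraries are given in this order throughout. Levels are counts scaled to library size by TMM (CPM). Differences are log2 fold changes of cKO over control with their standard error (SE), from edgeR's quasi-likelihood test with Benjamini-Hochberg adjustment over 17318 genes and a threshold of 0.05. Ufl1, the deleted gene, had 34.9, 35.6 and 38.8 CPM in cKO, against 57.9, 47.0 and 46.1 CPM in controls. The groups did not overlap, but the difference of -0.47 missed the threshold (edgeR adjusted p = 0.778, unadjusted p = 0.00985, SE 0.14). These counts cover the whole gene and every cell type of the ear, so they check the deletion only in part. Keratinocyte markers, 8 genes summed, had 15916, 11872 and 15074 CPM in cKO, against 8934, 18276 and 10987 CPM in controls. The labelled tissue thus carried its defining transcripts in every library. Control libraries differed more from each other than cKO libraries did: the chi-square of their counts per degree of freedom was 48.6 to 105.7 between controls and 16.6 to 29.8 between cKO libraries. Controls 1 and 2 stood apart most, and several results that rest on either are given with and without it, though not for every gene.

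The mitochondrial genes have copies in the nuclear genome, and these copies bear on what the counts hold, since a read that matches 2 places equally well cannot be placed. The transcripts of the 13 mitochondrial genes were aligned with blastn to all other mouse transcripts of the GENCODE M21 annotation (GRCm38, the assembly that mm10 names). A block of unprocessed pseudogenes on the minus strand of chromosome 1, between 24611535 and 24616197, matched 8 of them, whole or in part, at an identity of at least 99%. For mt-Co2 the copy Gm28661 was identical over 681 bases, for mt-Atp6 the copy Gm10925 over 678 bases, for mt-Co3 the copy Gm28437 over 783 bases and for mt-Nd4l the copy Gm10222 over 294 bases, in each case nearly the whole gene. For mt-Nd3 the copy Gm28438 differed at 1 base of 345. mt-Nd4 was covered for 63.6% of its length by Gm28439 at 100% identity, mt-Co1 for 31.3% by Gm29216 at 99.8%, and mt-Atp8 for 21.1% by the end of Gm10925 at 100%. A second kind of copy was farther off: on chromosome 4, Gm11410 matched mt-Cytb at 92.9% identity, Gm11408 matched mt-Nd6 at 93.6% and Gm11407 matched mt-Nd5 at 92.3%. On chromosome 2, Gm13340 matched the whole of mt-Co1 at 97.6% and Gm13341 matched the whole of mt-Co2 at 95.9%.

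The windows below show both kinds, 60 bases each, for a gene counted at a low level and a gene counted at a high level. The first pair is the start of mt-Nd3 at chrMT:9459-9518 (plus strand) and its copy Gm28438 at chr1:24613060-24613119 (minus strand). The second pair is a stretch of mt-Cytb at chrMT:14705-14764 (plus strand) and its copy Gm11410 at chr4:80004549-80004608 (plus strand). Capitals mark the bases at which gene and copy differ, and all were read from the GENCODE M21 transcripts.
mt-Nd3: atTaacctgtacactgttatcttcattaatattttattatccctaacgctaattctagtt
Gm28438: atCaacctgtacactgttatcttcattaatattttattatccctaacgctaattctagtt
mt-Cytb: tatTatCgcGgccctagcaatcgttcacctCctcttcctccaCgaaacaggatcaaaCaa
Gm11410: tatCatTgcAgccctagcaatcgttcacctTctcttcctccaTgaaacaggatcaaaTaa
The first pair differed by T3C, the only difference along the 345 aligned bases. The second pair differed by T564C, C567T, G570A, C591T, C603T and C618T in 60 bases. In each, the first letter is the base of the mitochondrial gene, positions count from the first base of that gene, and the last letter is the base of the copy.

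Counted levels followed this division in part. mt-Nd4 was counted high with 63.6% of its length in an identical copy, and mt-Atp8 was counted lowest with 21.1%. Per length, as the authors' FPKM averaged over the 6 libraries, levels were 7961 for mt-Co1, 4554 for mt-Cytb, 3652 for mt-Nd1, 1811 for mt-Nd2, 1719 for mt-Nd4, 1617 for mt-Nd6 and 1313 for mt-Nd5. The 5 genes with a copy of at least 99% identity over at least 95% of their length had a mean FPKM between 6.78 and 63.5: 63.5 for mt-Co2, 62.7 for mt-Atp6, 33.4 for mt-Co3, 9.34 for mt-Nd4l and 6.78 for mt-Nd3. mt-Atp8, which lies between mt-Co2 and mt-Atp6 and overlaps mt-Atp6, had 0.560 FPKM, from 1, 1 and 5 counts in cKO, against 2, 2 and 2 counts in controls. All 6 of these genes are neighbours on the chromosome, so position and copy largely coincide for them, and which of the 2 goes with the low counts was not tested. The 7 abundant genes made up 99.5% to 99.7% of the mitochondrial mRNA counts of each library, so sums over the mitochondrial genes describe these 7. mt-Nd5 and mt-Nd6 overlap at their ends on opposite strands. Whether strand was used in counting is not stated, so reads from the overlap cannot be told apart.

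**Figure D1:**
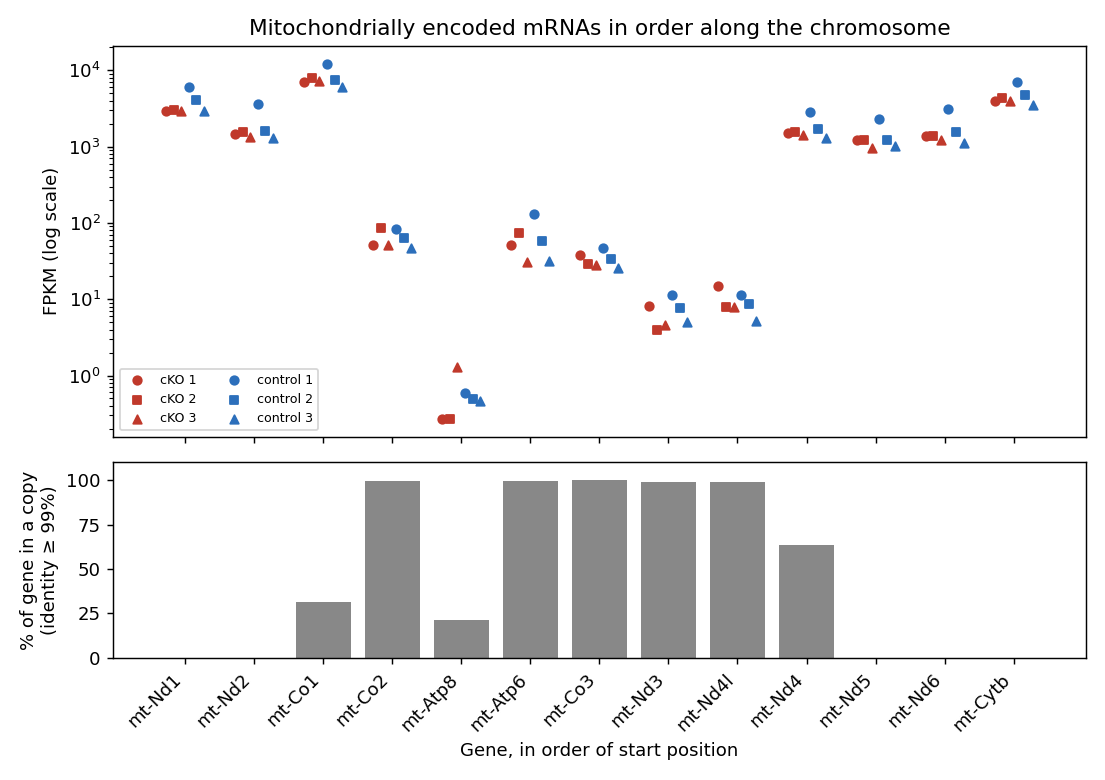
FPKM on a log scale of each mitochondrially encoded mRNA in each library (red, cKO; blue, control; upper panel), with genes ordered by start position, and the percentage of each gene covered by a nuclear copy of at least 99% identity (lower panel). The 5 genes covered for at least 95% of their length and mt-Atp8 lie between 0.560 and 63.5 FPKM on average, while the other 7 lie between 1313 and 7961 FPKM.

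In the chromosome 1 block, the copies of the 5 low genes had counts of the same order as the genes they match. Gm28661, the copy of mt-Co2, had 365, 425 and 540 counts in cKO, against 761, 707 and 419 counts in controls. Gm10925, the copy of mt-Atp6, had 625, 493 and 462 counts in cKO, against 820, 696 and 518 counts in controls. Gm28438, the copy of mt-Nd3, had 79, 83 and 70 counts in cKO, against 157, 152 and 108 counts in controls. The partial copies of abundant genes were far below them: Gm28439 had 204, 128 and 101 counts in cKO, against 230, 160 and 137 counts in controls, beside a mean of 43976 counts for mt-Nd4, and Gm29216 had 367, 356 and 309 counts in cKO, against 497, 319 and 266 counts in controls, beside a mean of 228902 counts for mt-Co1. The farther copies on chromosome 4 had almost none: Gm11410 and Gm11407 were at 0 in all 6 libraries, which a count of up to 3 per library would allow, and Gm11408 had 1 count in cKO 1 and 0 elsewhere. Those on chromosome 2 were counted. Gm13340 had 84, 55 and 62 counts in cKO, against 89, 97 and 81 counts in controls. Gm13341 had 24, 24 and 22 counts in cKO, against 58, 16 and 38 counts in controls. The values of the 5 low genes are therefore uncertain in level, and their differences between groups are given only beside those of the 7 abundant genes.

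Mitochondrially encoded mRNAs took 2.45%, 2.66% and 2.45% of all counts in cKO, against 4.51%, 2.90% and 2.24% in controls. The 3 cKO libraries lay close together (2.52% ± 0.123, SD, n = 3), while the controls spread widely around them (3.22% ± 1.17, SD, n = 3) and held both the highest and the lowest share. Nuclear encoded members took 0.530%, 0.569% and 0.529% of counts in cKO, against 0.595%, 0.625% and 0.527% in controls. These groups overlapped as well, with means of 0.542% ± 0.0226 in cKO and 0.583% ± 0.05004 in control (SD, n = 3 each). The ratio of mitochondrial to nuclear counts was 4.63, 4.68 and 4.63 in cKO, against 7.58, 4.65 and 4.24 in controls. The cKO ratios and that of control 2 were nearly equal, control 3 was slightly below them and control 1 was far above. Summed over FPKM, which weights genes by length, the ratio was 4.76, 4.82 and 4.70 in cKO, against 8.23, 4.79 and 4.35 in controls, with the same order of libraries. On the log2 scale the mean mitochondrial share of cKO was 0.29 below that of control (-0.29), a difference of -0.02 without control 1.

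**Figure D2:**
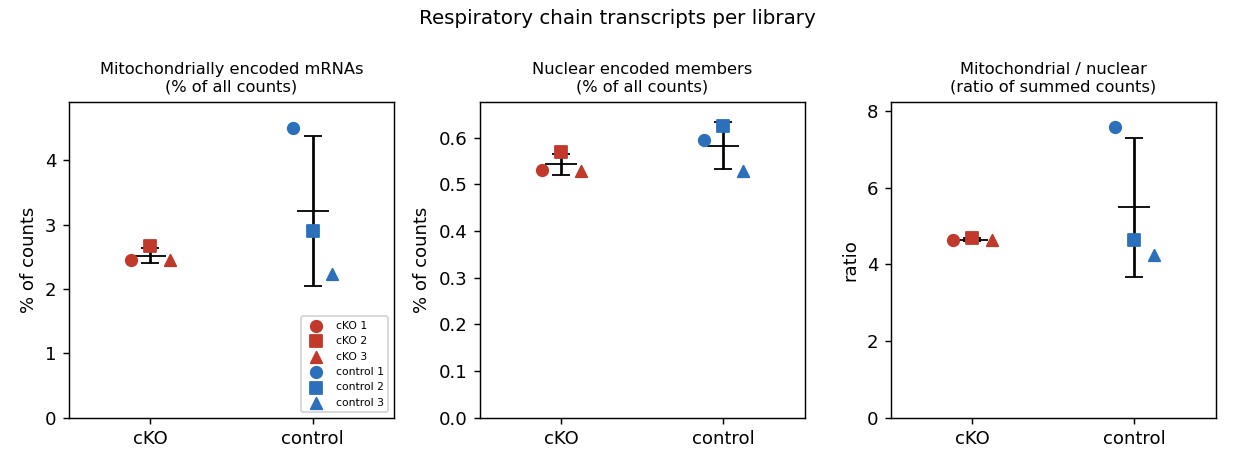
Share of all counts held by the 13 mitochondrially encoded mRNAs (left) and by the 72 nuclear encoded members (middle), in percent, and the ratio of both sums (right), for each library of cKO (red) and control (blue), with the mean and SD of each group (n = 3). The cKO libraries cluster at ratios of 4.63 to 4.68, and control 1 stands alone at 7.58.

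Control 1 also differed from the other libraries in measures outside the respiratory chain. Its ratio to control 3 went with the GC content of the transcript over the 17304 tested genes that have one in the annotation. Split by GC into 4 bins of equal size, from low to high, the median ratios were 1.19, 1.04, 0.935 and 0.806. Spearman's rho between GC and this ratio was -0.44 across genes, a description only. The 12 tested mitochondrial mRNAs have a median GC of 37.4%, against 49.7% over all tested genes and 51.0% over the nuclear members. The mitochondrial mRNAs had a median ratio of control 1 to control 3 of 2.21, the nuclear members 1.16 and all genes 0.992. Among 2185 other genes with at most 42% GC the median ratio was 1.24 and the 90th percentile 1.93. Skeletal muscle markers, 15 genes summed, had 6559, 8211 and 3090.03 CPM in cKO, against 9506, 4929 and 4618 CPM in controls. They were highest in control 1 and next highest in cKO 2. The mitochondrial share of cKO 2, at 2.66%, was the highest in cKO, beside 2.45% in cKO 1 and in cKO 3, and was below the 2.90% of control 2. White adipocyte markers, 8 genes summed, had 1186, 1202 and 961 CPM in cKO, against 1959, 928 and 1809 CPM in controls. Brown adipocyte markers, 6 genes summed, had 104, 117 and 117 CPM in cKO, against 90.7, 233 and 150 CPM in controls. Their sum was lowest in control 1. Among them, Ucp1 stayed at or below 0.258 CPM in every library. The part of GC content, muscle or fat in the mitochondrial share of control 1 was not tested, and in whole tissue fewer cells of a type and less RNA per cell cannot be told apart.

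No respiratory chain gene passed the test between cKO and control. Of the 85 members, 78 passed the filter on low counts (12 mitochondrial and 66 nuclear). Not tested were mt-Atp8, the testis isoforms Cox7b2 and Cox8c, and the pseudogenes Ndufa11b, Ndufs6b, Uqcrh-ps1 and Uqcrh-ps2. At an adjusted p under 0.05 edgeR called 0 of the 78, where it called 0.0173% of all genes tested (3 genes). At an unadjusted p under 0.05 it found 2 of the 78, where the share over all genes was 5.33%. DESeq2 also called 0 members, with 0.526% of all genes called. In the authors' deposited table, 81 members had a value, 0 had an adjusted p under 0.05 and 2 had a p under 0.05, with 0.277% of all genes called there.

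The mitochondrially encoded mRNAs had a median log2 fold change of -0.40 (median fold 0.758), beside -0.01 over all genes tested. Of the 12 tested, 11 had a negative value, where 52.2% of all genes did, and the range was -0.57 to 0.28 with SEs of 0.24 to 0.51. Adjusted p-values were 0.970 to 0.997 (edgeR), and for all 12 genes the cKO and control libraries overlapped. This median rested on 1 library: without control 1 it was 0.01, with 7 genes positive and 5 negative. The positive ones were the low genes mt-Nd4l, mt-Atp6, mt-Co2 and mt-Co3, which have near-identical copies, and mt-Co1, mt-Nd2 and mt-Nd5. Without any other single library the median was between -0.62 and -0.30. With all 6 libraries it was -0.41 for the 7 abundant genes and -0.18 for the other 5 tested. Control 1 was the highest of the 6 libraries for 10 of the 12 genes, where it was highest for 23.8% of all genes, and control 3 was the lowest for 9. The sign and size of the median held under each of the other scalings tried, with medians of -0.44 to -0.40. With sample quality weights the median was 0.09. These weights were 0.336, 0.322 and 2.79 for controls 1 to 3, so among the controls that fit rested mainly on control 3.

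By complex, mt-Nd1, a membrane subunit of complex I at the ubiquinone site, had 2859.7, 2913 and 2849 CPM in cKO, against 5754, 3919 and 2843 CPM in controls. Controls 1 and 2 were above every cKO library and control 3 was level with them, and the difference was -0.54 (edgeR adjusted p = 0.970, unadjusted p = 0.0963, SE 0.29). mt-Nd2, a proton-pumping subunit, had 1541, 1625 and 1402 CPM in cKO, against 3788, 1676 and 1335 CPM in controls, with control 1 far above all others, and a log2 fold change of -0.57 (SE 0.38). The pumping subunits mt-Nd4 and mt-Nd5 had log2 fold changes of -0.39 (SE 0.31) and -0.41 (SE 0.33), with mt-Nd4 at 2099, 2165 and 1941 CPM in cKO, against 3967, 2376 and 1773 CPM in controls. mt-Nd6, the only mRNA of this set encoded on the light strand, had 717, 715 and 635 CPM in cKO, against 1606, 829 and 575 CPM in controls, again highest in control 1, and its log2 fold change was -0.54 (SE 0.35). Without control 1 the log2 fold changes were -0.24 for mt-Nd1, 0.01 for mt-Nd2, -0.01 for mt-Nd4, 0.01 for mt-Nd5 and -0.03 for mt-Nd6.

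mt-Cytb, the catalytic subunit of complex III, had 4555, 4939 and 4504 CPM in cKO, against 7996, 5478 and 4033 CPM in controls, and its log2 fold change was -0.32 (SE 0.29). Without control 1 this value was -0.03. mt-Co1, which holds the oxygen-reducing centre of complex IV, was the most abundant member with 10847, 12184 and 11266 CPM in cKO, against 18955, 11632 and 9487 CPM in controls, a log2 fold change of -0.22 (SE 0.32). It made up 43.5%, 45.3% and 46.1% of mitochondrial mRNA counts in cKO, against 40.8%, 41.1% and 43.2% in controls. The groups did not overlap in this share, by the narrow gap between cKO 1 and control 3, and it was not tested. mt-Atp6, the proton channel subunit of the ATP synthase and one of the genes with an identical copy, had 35.2, 50.6 and 20.8 CPM in cKO, against 90.5, 39.6 and 21.6 CPM in controls, the widest relative spread among the 12 tested mitochondrial mRNAs in both groups. mt-Co2 and mt-Co3, core subunits of complex IV, had log2 fold changes of -0.03 (SE 0.27) and -0.18 (SE 0.24), and mt-Nd3 differed by -0.50 on the log2 scale (SE 0.42). mt-Nd4l was the only one with a positive value, 0.28 (SE 0.40), which was -0.09 without cKO 1.

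**Figure D3:**
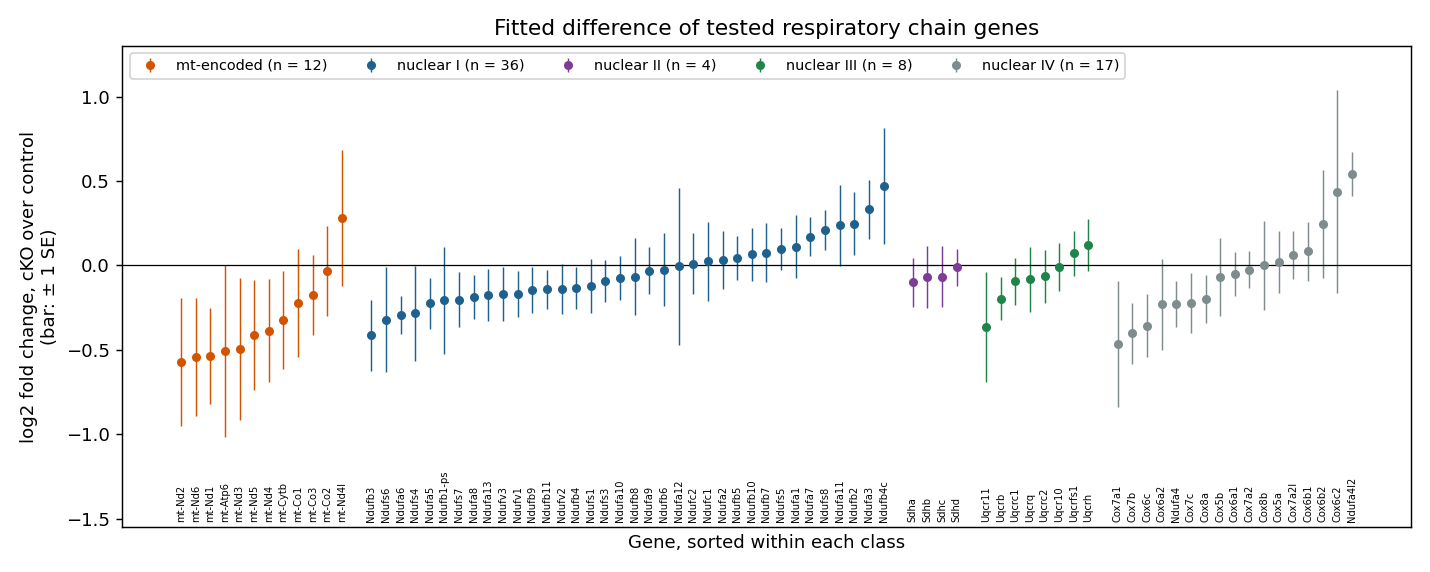
Fitted log2 fold change of cKO over control for 77 of the 78 tested genes, with bars of 1 SE, sorted within the mitochondrially encoded genes and within the nuclear genes of complexes I to IV. The mitochondrial genes lie between -0.57 and 0.28 with long bars, and most nuclear genes lie within 0.2 of 0.

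Nuclear encoded members had a median log2 fold change of -0.07 (median fold 0.955), with 23 of 66 positive and 43 negative. For 44 of the 66 the fitted change was under 0.2 in size, and the range was -0.47 to 0.54. The cKO libraries lay wholly above the controls for 3 genes (Ndufa4l2, Ndufa7 and Ndufs8) and wholly below them for 2 (Ndufa6 and Ndufb3), together 5 of 66. Over all genes tested, 5.73% lay wholly above, 4.81% wholly below and 10.5% either way. The medians were alike in each complex: -0.07 for the 37 tested genes of complex I, -0.07 for the 4 of complex II, -0.07 for the 8 of complex III and -0.05 for the 17 of complex IV. Within complex I, the 7 nuclear core subunits had a median of -0.12 and the 30 other tested genes a median of -0.03. Those 30 are supernumerary subunits, with the pseudogene Ndufb4c and the non-coding Ndufb1-ps among them. The 17 genes of complex IV include the pseudogene Cox6c2. Leaving out single libraries moved the median of the 66 to between -0.15 and -0.02. With sample quality weights, which gave controls 1 to 3 weights of 0.336, 0.322 and 2.79, it was 0.04. Among the controls this value too rested mainly on control 3.

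Core subunits of complex I varied little. Ndufv1, which binds NADH and takes its electrons, had 104, 112 and 103 CPM in cKO, against 109.99, 138 and 109.8 CPM in controls, a log2 fold change of -0.17 (SE 0.14), with control 2 alone above the rest. Ndufs1, an iron-sulfur subunit of the electron path, had 89.7 ± 7.27 CPM in cKO and 97.6 ± 18.3 CPM in control (SD, n = 3 each) and a log2 fold change of -0.12 (SE 0.16). Ndufs8, an iron-sulfur subunit near the ubiquinone site, was one of the few with every cKO library above every control: 63.8, 69.3 and 67.8 CPM in cKO, against 61.02, 59.9 and 53.1 CPM in controls. Its log2 fold change was 0.21 (edgeR adjusted p = 0.981, unadjusted p = 0.12, SE 0.12), between 0.15 and 0.24 without single libraries.

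Among the supernumerary subunits of complex I, which surround the core and are needed for its assembly and stability, Ndufa6 (ENSMUSG00000022450, chr15:82350140-82354322, minus strand) had the smallest p. It had 79.2, 83.7 and 84.5 CPM in cKO, against 107, 98.6 and 97.9 CPM in controls, so every cKO library was below every control, by a log2 fold change of -0.29 (edgeR adjusted p = 0.870, unadjusted p = 0.0309, SE 0.11). Leaving out single libraries kept it between -0.32 and -0.26. In the authors' deposited table its log2 fold change was -0.29 with a p of 0.0535. Ndufb3, of the membrane arm, had 27.1, 28.9 and 22.2 CPM in cKO, against 29.1, 45.6 and 29.3 CPM in controls, where the gap between the groups was small and control 2 stood high, and its log2 fold change of -0.41 (SE 0.21) was -0.17 without control 2. Ndufa3 had 33.6, 34.3 and 30.8 CPM in cKO, against 22.2, 32.5 and 23.7 CPM in controls (log2 fold change 0.33, SE 0.17), with cKO libraries above controls 1 and 3 but cKO 3 below control 2. Ndufa5 had 48.7 ± 3.98 CPM in cKO and 56.9 ± 8.47 CPM in control (log2 fold change -0.23, SE 0.15). Ndufa7, named after its values were seen because its groups did not overlap, had 87.2, 87.7 and 82.8 CPM in cKO, against 71.9, 82.6 and 74.5 CPM in controls, with cKO 3 and control 2 nearly equal, and a log2 fold change of 0.17 (SE 0.12).

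All 4 subunits of complex II, which is also the succinate dehydrogenase of the tricarboxylic acid cycle, lay near 0. Sdha, the flavoprotein that oxidises succinate, had 209, 226 and 182 CPM in cKO, against 245, 208 and 208 CPM in controls, a log2 fold change of -0.10 (SE 0.15). Sdhb, the iron-sulfur subunit, differed by -0.07 on the log2 scale (SE 0.18), and the membrane anchors Sdhc and Sdhd had log2 fold changes of -0.07 (SE 0.18) and -0.01 (SE 0.11). Sdhd was nearly level across libraries, with 83.5, 81.04 and 79.6 CPM in cKO, against 83.6, 80.8 and 81.7 CPM in controls. For each of the 4, control 1 was the highest library.

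In complex III, 7 of the 8 tested nuclear genes lay under 0.2 in size, and Uqcr11, given further on, was at -0.36 (SE 0.32). Uqcrc1, a core protein that faces the matrix, had 251 ± 14.03 CPM in cKO and 268 ± 26.4 CPM in control (SD, n = 3 each), and its difference was -0.09 (SE 0.14). Uqcrfs1, the Rieske iron-sulfur protein that hands electrons towards cytochrome c, had 143 ± 5.84 CPM in cKO and 136 ± 15.9 CPM in control, with a log2 fold change of 0.07 (SE 0.13). Uqcrb, which helps bind ubiquinone, had 65.6, 67.6 and 64.002 CPM in cKO, against 80.05, 80.6 and 65.7 CPM in controls, with a log2 fold change of -0.20 (SE 0.13). Uqcr10, the most abundant member of complex III among nuclear genes with a mean of 177 FPKM, had 104 ± 6.72 CPM in cKO and 104 ± 15.1 CPM in control, with a log2 fold change of -0.01 (SE 0.14).

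The nuclear genes of complex IV held the most abundant nuclear members and both ends of the nuclear range, Ndufa4l2 at 0.54 and Cox7a1 at -0.47. Wide values were not particular to this complex: in complex I, the pseudogene Ndufb4c was at 0.47 and Ndufb3 at -0.41. By mean FPKM the highest nuclear members were Cox6a1 (261 FPKM), Cox8a (240.3 FPKM), Cox7a2l (183 FPKM) and Uqcr10, all below the least abundant of the 7 high mitochondrial mRNAs. Cox6a1 had 181 ± 12.2 CPM in cKO and 188 ± 14.6 CPM in control (log2 fold change -0.05, SE 0.13). Cox8a had 123 ± 5.94 CPM in cKO and 141 ± 19.96 CPM in control (log2 fold change -0.20, SE 0.14). Cox7a2l, which can link complexes III and IV into supercomplexes, had 217 ± 16.9 CPM in cKO and 208 ± 23.4 CPM in control (log2 fold change 0.06, SE 0.14). Cox7b had 100.2, 105 and 109 CPM in cKO, against 162, 151 and 102 CPM in controls: controls 1 and 2 were well above every cKO library, while control 3 fell among them, and the difference was -0.40 (edgeR adjusted p = 0.937, unadjusted p = 0.0565, SE 0.18). Cox6c had 155, 160.2 and 146 CPM in cKO, against 252, 179 and 159 CPM in controls, where control 1 stood highest, and its log2 fold change of -0.36 (SE 0.19) was -0.14 without control 1.

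Ndufa4l2 (ENSMUSG00000040280, chr10:127514967-127517154, plus strand) had the smallest p of the 78 genes. It encodes a paralog of Ndufa4 that is induced by low oxygen in mouse and human cells. It had 40.3, 38.02 and 41.4 CPM in cKO, against 27.3, 25.1 and 30.005 CPM in controls: the lowest cKO library was above the highest control. The difference was 0.54 (edgeR adjusted p = 0.625, unadjusted p = 0.00329, SE 0.13). This is a fold of 1.45, and the log2 value lay between 0.48 and 0.61 when single libraries were left out. Among all genes this difference did not pass. The smallest adjusted p it reached was 0.0920, in DESeq2 with all 6 libraries, not counting the fits of DESeq2 without single libraries. In the authors' deposited table its log2 fold change was 0.54 with an adjusted p of 0.221. Shmt2, which overlaps it on the opposite strand, had 46.1, 38.6 and 34.0 CPM in cKO, against 30.8, 40.4 and 35.0 CPM in controls (0.16, SE 0.17). The part of reads from the overlap in the counts of Ndufa4l2 was not tested. Ndufa4, whose place in complex IV the paralog is thought to take, had 194, 174 and 159 CPM in cKO, against 222, 204 and 192 CPM in controls (log2 fold change -0.23, SE 0.14), with the groups overlapping. The FPKM ratio of Ndufa4l2 to Ndufa4 was 0.262, 0.276 and 0.328 in cKO, against 0.155, 0.155 and 0.197 in controls, and all 3 cKO libraries were above all 3 controls. Since the gene had been singled out by its p, this ratio was not tested.

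Several members are isoforms that mark muscle, and they differed between libraries within each group. Cox6a2, Cox7a1 and Cox8b are the heart and skeletal muscle forms of subunits whose general forms are Cox6a1, Cox7a2 and Cox8a, and brown fat also expresses Cox7a1 and Cox8b. Cox6a2 had 57.6, 63.8 and 31.8 CPM in cKO, against 71.5, 60.9 and 47.3 CPM in controls (log2 fold change -0.23, SE 0.27), Cox7a1 had 12.04, 12.2 and 5.604 CPM in cKO, against 19.9, 11.9 and 9.45 CPM in controls (log2 fold change -0.47, SE 0.37) and Cox8b had 39.2, 45.5 and 26.8 CPM in cKO, against 50.8, 30.9 and 29.8 CPM in controls (log2 fold change 0.00, SE 0.26). For all 3, control 1 was the highest library and cKO 3 the lowest, and the summed muscle markers had the same highest and lowest library. Without control 1 the log2 fold change of Cox7a1 was -0.11. The part of muscle content in these values was not tested. The FPKM ratio of Cox6a2 to Cox6a1 was 0.348, 0.371 and 0.169 in cKO, against 0.391, 0.311 and 0.283 in controls, and that of Cox8b to Cox8a was 0.491, 0.582 and 0.313 in cKO, against 0.618, 0.286 and 0.332 in controls, so the muscle forms were present beside the general forms in every library. For Cox7a1 to Cox7a2 it was 0.1702, 0.166 and 0.0779 in cKO, against 0.277, 0.156 and 0.132 in controls. The general forms did not follow this order: Cox7a2, for example, had 125, 129 and 127 CPM in cKO, against 126, 135 and 126 CPM in controls (log2 fold change -0.02, SE 0.11). Cox6b2, a testis isoform, was near the floor at 2.17, 1.72 and 1.99 CPM in cKO, against 1.43, 2.11 and 1.42 CPM in controls (log2 fold change 0.24, SE 0.32), beside 111, 113 and 109.8 CPM in cKO, against 83.3, 132 and 100.3 CPM in controls for the general form Cox6b1 (log2 fold change 0.08, SE 0.17).

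**Figure D4:**
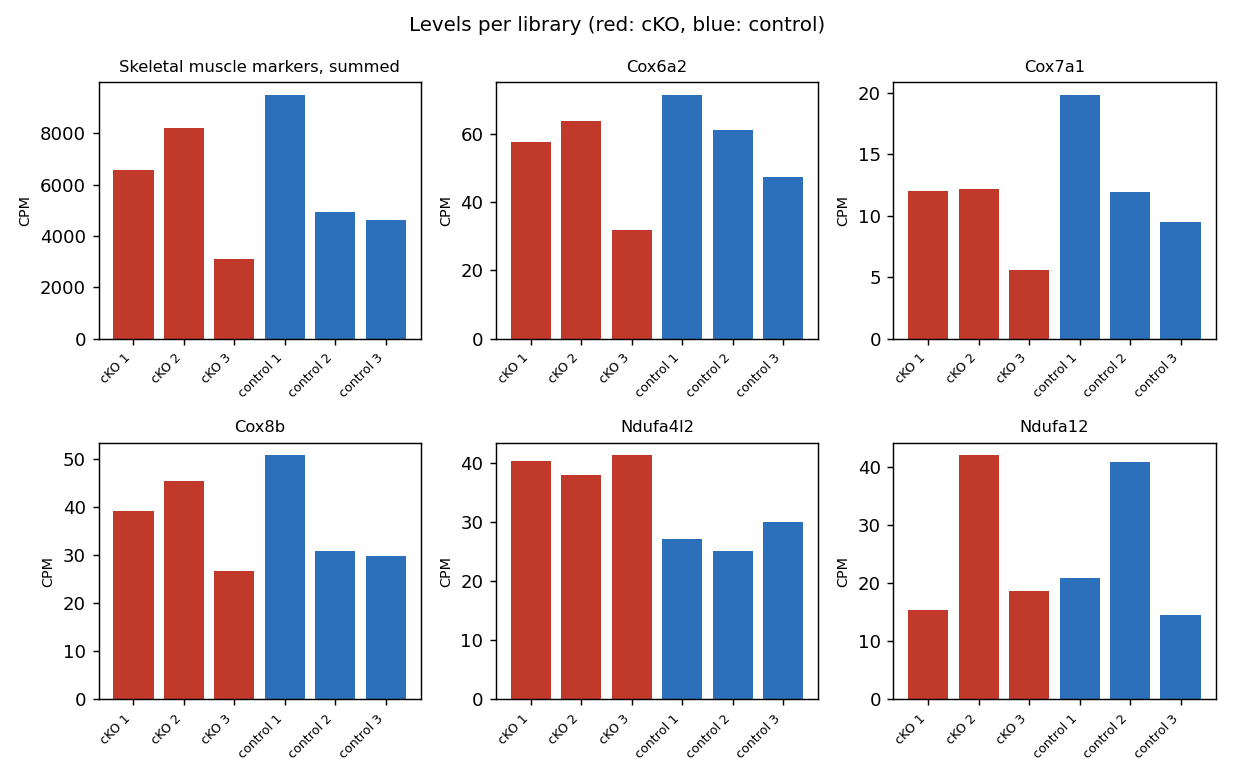
CPM per library (red, cKO; blue, control) of the summed skeletal muscle markers, of the muscle isoforms Cox6a2, Cox7a1 and Cox8b, of Ndufa4l2 and of Ndufa12, each on its own linear axis from 0. The muscle isoforms are highest in control 1 and lowest in cKO 3, the lowest cKO library for Ndufa4l2 (38.02 CPM) lies above the highest control, and Ndufa12 is high only in cKO 2 and control 2.

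Much of the variation among nuclear members was between control libraries. The median SD of log2 CPM over the 66 genes was 0.0959 in cKO and 0.258 in control, with the control SD the larger for 59 of the 66, where this held for 71.0% of all genes tested. Control 1 was the highest library for 28 of the 66 (23.8% of all genes) and the lowest for 18 (25.5%), and control 2 was the highest for 26 (27.1%) and the lowest for 3 (26.9%). The genes that follow were chosen after their values were seen, as examples of these opposite patterns. Uqcr11, a small subunit of complex III, had 42.4, 41.2 and 37.2 CPM in cKO, against 26.8, 76.8 and 51.6 CPM in controls, so the cKO libraries lay between the extremes of controls 1 and 2. Its log2 fold change was -0.68 without control 1 (unadjusted p = 0.00733, adjusted p = 0.421, edgeR) and 0.04 without control 2. Ndufs6, of complex I, had 22.4, 27.03 and 22.9 CPM in cKO, against 17.8, 45.8 and 26.8 CPM in controls, and Cox5b, of complex IV, had 60.1, 65.001 and 61.4 CPM in cKO, against 43.8, 87.9 and 63.5 CPM in controls, both low in control 1 and high in control 2. Ndufs4, a complex I subunit whose loss causes mitochondrial disease in mice and humans, was high in control 1 and not in control 2: 45.1, 51.6 and 46.4 CPM in cKO, against 87.4, 48.4 and 38.6 CPM in controls. The long non-coding Ndufb1-ps had 40.7, 35.3 and 50.02 CPM in cKO, against 76.2, 33.8 and 35.7 CPM in controls, also highest in control 1.

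**Figure D5:**
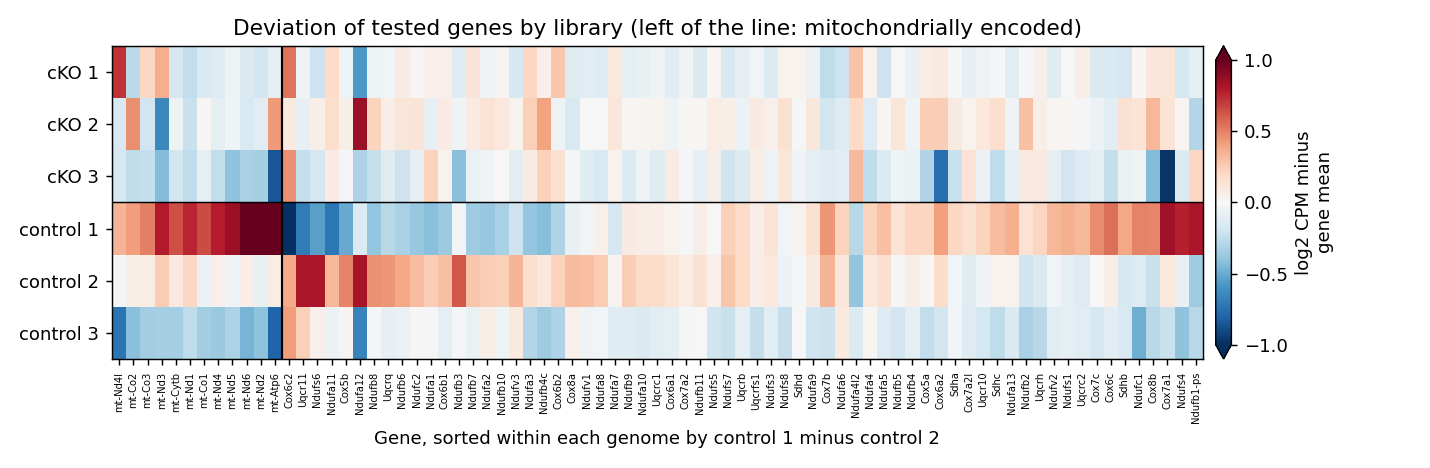
Deviation of the log2 CPM of the same 77 genes in each library from its own 6-library mean (colour, limited to between -1 and 1), with mitochondrially encoded genes left of the vertical line and genes ordered within each genome by control 1 minus control 2. The cKO libraries (top 3) are pale for most genes, while control 1 is high for 10 of the 12 mitochondrial genes and runs against control 2 at both ends of the nuclear genes.

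Ndufa12, a supernumerary subunit of complex I chosen here after its values were seen, differed between libraries in a way that crossed the groups. It had 277, 758 and 355 counts in cKO, against 352, 794 and 307 counts in controls, which is 15.4, 42.1 and 18.6 CPM in cKO, against 20.996, 40.9 and 14.5 CPM in controls. cKO 2 and control 2 stood far above the other 4 libraries, and the log2 fold change was -0.01 (SE 0.47), ranging between -0.58 and 0.52 without single libraries. Of 6050 genes whose log2 CPM ranged over at least 1, 1 other (Tmprss5) followed it at a Pearson's r of 0.95 or more over the 6 libraries, and among 16 tested genes within 1 Mb on chromosome 10 the highest r was 0.60. These correlations share libraries and depth and are descriptions only.

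Nuclear respiratory chain genes are known to be controlled in part by NRF1, by the ETS family factor GABP and by YY1, so their promoters were searched for short motifs of these factors on both strands. RefSeq promoters (GRCm38.p6, 250 bases before to 50 after the gene start, 300 bases in all) were found for 53 member genes, 55 promoters in total. The NRF1 motif CGCATGCGC was in 5 of 55 (9.09%), those of Cox6a1, Ndufa11, Ndufa8, Uqcr11 and Uqcrc1, against 575 of all 32851 promoters (1.75%). The ETS motif CCGGAAG was in 11 of 55 (20.0%), against 8.86% of all promoters, and the YY1 motif AAGATGGCG in 5 of 55 (9.09%), against 1.40%. The ETS matches were in Cox6a1, Cox6b1, Cox8a, Ndufb6, Ndufb7, Ndufs3, Ndufs8, Sdhb, Sdhd, Uqcr11 and Uqcrh, and the YY1 matches in Ndufa9, Ndufc1, Ndufs4, Ndufs6 and Ndufs7. The ETS and YY1 motifs can share letters, but no member promoter held both. A match is a description of these letters and not a binding site. The promoter of Cox6a1, the nuclear member with the highest FPKM and one that held both an NRF1 and an ETS match, is shown in its own sense (chr5:115348909-115349208, minus strand). Capitals mark the NRF1 matches on both strands, which overlap and begin 162 bases before the gene start.
Cox6a1 promoter: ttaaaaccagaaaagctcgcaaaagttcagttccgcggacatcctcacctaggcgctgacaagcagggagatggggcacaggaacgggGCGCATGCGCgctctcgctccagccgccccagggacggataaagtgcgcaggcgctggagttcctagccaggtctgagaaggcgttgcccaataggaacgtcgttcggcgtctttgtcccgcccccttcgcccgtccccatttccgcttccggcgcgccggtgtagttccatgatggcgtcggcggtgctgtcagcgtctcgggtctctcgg
Transcripts of these factors did not pass the test: Nrf1 had 35.6, 32.9 and 31.6 CPM in cKO, against 29.4, 35.8 and 36.1 CPM in controls (log2 fold change -0.02, SE 0.14), Gabpa differed by 0.02 on the log2 scale (SE 0.14) and Yy1 differed by -0.03 on the log2 scale (SE 0.11).

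Neighbouring parts of the same machinery were also without a call. A list of 9 genes that the naming pattern leaves out held subunits, carriers and associated factors such as Cmc1 and Higd1a. Of these, 8 were tested, with a median log2 fold change of -0.09, which was -0.02 without control 2. Cox4i1, the general form of the largest nuclear subunit of complex IV, had 324, 372 and 349.8 CPM in cKO, against 355, 383 and 347 CPM in controls (log2 fold change -0.05, SE 0.14), and its isoform Cox4i2 had 14.04, 13.04 and 10.2 CPM in cKO, against 16.9, 12.3 and 15.2 CPM in controls (log2 fold change -0.25, SE 0.20). Cyc1, the haem-bearing subunit of complex III, differed by -0.01 on the log2 scale (SE 0.13), and Cmc1 and Ndufab1 had log2 fold changes of -0.22 (SE 0.19) and -0.14 (SE 0.16). The 18 nuclear genes of the ATP synthase had a median of -0.07, with 5 positive and 13 negative. This was 0.03 without control 1. Atp5k, subunit e, had 53.1, 49.6 and 41.3 CPM in cKO, against 15.03, 40.9 and 40.1 CPM in controls, with control 1 far below the rest and a log2 fold change of 0.58 (SE 0.34). Usmg5 and Atp5j2 had log2 fold changes of -0.28 (SE 0.16) and -0.24 (SE 0.16). For complex assembly, 43 of 45 listed factors were tested, with a median of -0.05, 18 positive and 25 negative. Tmem186, an assembly factor of complex I, had 12.98, 12.4 and 12.5 CPM in cKO, against 14.6, 17.6 and 18.6 CPM in controls, with every cKO library below every control, and a log2 fold change of -0.42 (edgeR adjusted p = 0.894, unadjusted p = 0.0355, SE 0.17). Ndufaf8 and Sdhaf3 had log2 fold changes of -0.28 (SE 0.18) and -0.33 (SE 0.22).

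Genes that replicate, transcribe and process the mitochondrial chromosome had a median of -0.13 over 29 tested of 30, with 4 positive and 25 negative, where 47.8% of all genes were positive. Adjusted p-values in this list were 0.948 to 0.998 (edgeR), and for 5 of the 29 every cKO library was below every control, where this held for 4.81% of all genes. The mean deviation from each gene's average, in log2 CPM, was -0.07, -0.07 and -0.03 in cKO, against 0.08, 0.16 and -0.08 in controls, so control 3 was level with the cKO libraries. The median was -0.10 without control 1, -0.08 without control 2, -0.20 without control 3 and -0.013 with quality weights. Mterf1a, a terminator of mitochondrial transcription, had 3.51, 3.94 and 3.72 CPM in cKO, against 5.91, 6.08 and 4.21 CPM in controls (log2 fold change -0.53, SE 0.25). Ssbp1, which binds single-stranded mitochondrial DNA, had 20.6, 21.9 and 23.1 CPM in cKO, against 26.3, 24.95 and 25.2 CPM in controls (log2 fold change -0.22, SE 0.13), and Fastkd5, an RNA processing factor, differed by -0.40 on the log2 scale (SE 0.26). Tfam, which packages the chromosome and starts its transcription, had 34.7, 33.7 and 39.6 CPM in cKO, against 44.7, 36.7 and 33.5 CPM in controls (log2 fold change -0.09, SE 0.15), with the groups overlapping, and the polymerase Polrmt differed by -0.21 on the log2 scale (SE 0.17). The 77 tested of 78 mitochondrial ribosomal proteins had a median of 0.01, with 44 positive and 33 negative. Mrps18b had 15.5, 14.04 and 17.9 CPM in cKO, against 12.2, 10.5 and 10.3 CPM in controls (log2 fold change 0.52, edgeR adjusted p = 0.857, unadjusted p = 0.0193, SE 0.18), Mrpl41 differed by -0.52 on the log2 scale (SE 0.25) and Mrpl35 differed by 0.26 on the log2 scale (SE 0.14).

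Of 14 regulators of mitochondrial biogenesis, 6 were positive and 8 negative, with a median of -0.02. Ppargc1a, the coactivator of oxidative tissues, had 7.58, 10.5 and 5.92 CPM in cKO, against 13.7, 6.03 and 6.28 CPM in controls (log2 fold change -0.11, SE 0.37). Esrrg, a nuclear receptor that is abundant in muscle and heart, had 5.02, 4.94 and 2.46 CPM in cKO, against 10.8, 4.69 and 5.43 CPM in controls (log2 fold change -0.75, SE 0.41), with control 1 high and cKO 3 low as for the muscle isoforms. Gabpb2 and Ppard had log2 fold changes of 0.11 (SE 0.11) and 0.13 (SE 0.14). Mitochondrial chaperones and proteases, 16 genes with Atf5, had a median of 0.01 and 10 positive values. The single one with a p under 0.05 was Atf5, a transcription factor of the mitochondrial and integrated stress responses, which had 106, 125 and 108 CPM in cKO, against 86.7, 66.1 and 79.95 CPM in controls, with every cKO library above every control, and a log2 fold change of 0.54 (edgeR adjusted p = 0.650, unadjusted p = 0.00559, SE 0.14). Genes of that list described as its targets in mammalian cells, the chaperones Hspd1 and Hspa9 and the protease Lonp1, had log2 fold changes of 0.05 (SE 0.14), -0.01 (SE 0.14) and -0.20 (SE 0.19), and Htra2 differed by 0.26 on the log2 scale (SE 0.19). The 13 other enzymes of the tricarboxylic acid cycle had a median of -0.07, with 2 positive and 11 negative. It rested on control 1, the highest library for 10 of the 13: the median was 0.09 without control 1 and 0.07 with quality weights. Citrate synthase (Cs), often used as a measure of mitochondrial content, had 343, 362 and 343 CPM in cKO, against 367, 406 and 327 CPM in controls (log2 fold change -0.07, SE 0.15).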

How the data were processed

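Total RNA was extracted with TRIzol from ear skin, and libraries were made with the NEBNext Ultra kit from 3 µg per sample, per the labels' protocols. The submitters' processing notes name HISAT2, HTSeq and the build mm10; versions, parameters and the strand setting are not given in the sources used here. The authors deposited raw counts per gene for each library, per the file headers. They also deposited FPKM values, which equal the count divided by gene length and by an effective library size of 97.6% to 104.4% of the total. Per the file headers, the authors' normalized group means (a signal value), log2 fold changes and p-values of cKO against control stand beside them, from a test that is not named.

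Members and lists were chosen with earlier results of these data known. Counts of 17318 genes (filterByExpr) were scaled by TMM and tested with edgeR 4.0.16 (quasi-likelihood, robust, no covariates, R 4.3.3) and Benjamini-Hochberg adjustment over all of them. SEs are the log2 fold change over the root of F. The alternatives used limma 3.58.1 and DESeq2 1.42.0, and blastn 2.17.0 (E-value 1e-10) found the copies. The fit was tested on simulated counts. Named genes were the mitochondrial members, Sdha to Sdhd, Ndufs1, Ndufv1, Uqcrc1, Uqcrfs1, the isoform sets of complex IV, the 8 other nuclear members with the smallest p, the 4 with the highest FPKM and up to 3 genes per context list; others were chosen after their values were seen. 1 further gene of this rule is not reported here. The replicate numbers come from the labels, which do not say that they mark pairs. Of 72 nuclear members, 30 overlap other genes of the table, 24 on the opposite strand.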

Additional observations from a re-analysis of the deposited data

How the results depend on the processing

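Members called stayed at 0 in both directions under every setting, also in DESeq2 without single libraries, a comparison added after seeing the data. The median of the mitochondrially encoded genes was -0.40, ranged over -0.62 to 0.0092 without single libraries, and was 0.087 with voom quality weights. The nuclear median ranged over -0.15 to -0.02 without single libraries and was 0.038 with quality weights. Among the controls, results with quality weights rest mainly on control 3, which had a weight of 2.79. Over all genes, edgeR called 2 higher and 1 lower. These counts were 18 and 7 with a filter of 1 count, 67 and 24 in DESeq2, 0 and 0 in voom and with FPKM pseudocounts of 1 and 0.1, and 19 and 7 with quality weights. Without single libraries edgeR called 0 to 2 higher and 0 to 2 lower, and DESeq2 26 to 190 higher and 12 to 67 lower. Quality weights moved the medians of the genes left out by the naming pattern to -0.0075, the ATP synthase to 0.098 and assembly factors to 0.015. The same weights moved mitochondrial DNA expression to -0.013 and melanocyte markers to 1.73, the last being 1.51 on log2(FPKM + 1) and 2.07 in edgeR. Without single libraries the ATP synthase ranged over -0.18 to 0.030 and brown adipocyte markers over -0.59 to 0.011. The cause was not tested for any of these. Of 1728 comparisons of named genes with an alternative, 1640 kept direction and call, 8 lost and 11 gained a call, none of these a member, and 69 changed sign with 0 called. The changed signs came from 33 genes, 29 of them members. Among these named genes, the log2 fold changes that changed sign with quality weights were 0.41 for mt-Atp6, 0.12 for mt-Co1, 0.23 for mt-Co2, 0.24 for mt-Co3, 0.061 for mt-Cytb, 0.012 for mt-Nd2, 0.098 for mt-Nd3, 0.072 for mt-Nd4, 0.045 for mt-Nd5 and 0.076 for mt-Nd6. For nuclear members they were 0.041 for Sdhb, 0.16 for Sdhc, 0.0022 for Sdhd, 0.022 for Ndufs1, 0.018 for Uqcrc1, 0.0058 for Cox6a1, 0.041 for Cox6a2, 0.12 for Uqcr10, 0.36 for Ndufa12, 0.15 for Ndufs4 and 0.11 for Ndufb1-ps, and for other genes 0.11 for Ndufab1 and -0.0045 for Ppard. Ranges without single libraries also crossed 0 for members outside the named genes, such as -0.18 to 0.33 for Ndufc1. Among the named genes, the ranges that crossed 0 were -0.87 to 0.21 for mt-Atp6, -0.42 to 0.11 for mt-Co1, -0.32 to 0.18 for mt-Co2, -0.37 to 0.056 for mt-Co3, -0.84 to 0.011 for mt-Nd2, -0.086 to 0.55 for mt-Nd4l and -0.63 to 0.0075 for mt-Nd5. For nuclear members they were -0.17 to 0.13 for Sdhb, -0.20 to 0.080 for Sdhc, -0.030 to 0.0044 for Sdhd, -0.20 to 0.038 for Ndufs1, -0.023 to 0.12 for Uqcrfs1, -0.11 to 0.0026 for Cox6a1, -0.43 to 0.019 for Cox6a2, -0.063 to 0.28 for Cox6b1, -0.044 to 0.0079 for Cox7a2, -0.17 to 0.29 for Cox8b, -0.093 to 0.11 for Uqcr10, -0.58 to 0.52 for Ndufa12, -0.68 to 0.035 for Uqcr11, -0.59 to 0.11 for Ndufs6, -0.51 to 0.13 for Ndufs4, -0.29 to 0.21 for Cox5b and -0.41 to 0.27 for Ndufb1-ps, and for other genes -0.59 to 0.0049 for Tnni2 and -0.58 to 0.00077 for Cnmd. Cox8b, at 0.00, was -0.0027 with RLE, -0.035 with upper-quartile and -0.013 with total-count scaling, -0.0026 and -0.0015 with the other filters and -0.0030 in DESeq2. Uqcr10, at -0.01, was 0.0033 and 0.0034 with FPKM pseudocounts of 1 and 0.1.

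With the replicate number as a block, 10 genes were called higher and 2 lower, 0 of them members, the medians were -0.32 for mitochondrial and -0.05 for nuclear genes, and Uqcr10 was at 0.00021. Across genes, the deviations of log2 CPM from the group mean had correlations of 0.216, -0.0431 and -0.0380 between same-numbered cKO and control libraries. Between differently numbered ones they ranged over -0.161 to 0.185, so the numbers were not taken as a pairing.

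Depth limits mt-Atp8, with 1 to 5 counts per library, and the 6 other members below the filter. For the abundant genes the spread between controls exceeds counting error.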

Other observations

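Cell type markers were listed with earlier results of these data known. For all 7 melanocyte markers every cKO library was above every control, where this held for 5.73% of all genes tested. Their median log2 fold change was 2.07, and edgeR called 1 of the 7, where it called 0.0173% of all genes. This was Tyrp1, a melanin-synthesis enzyme, with 55.6, 49.6 and 72.4 CPM in cKO, against 13.6, 15.8 and 14.4 CPM in controls (log2 fold change 2.02, edgeR adjusted p = 0.030, unadjusted p = 3.04e-06, SE 0.18). Leaving out single libraries gave Tyrp1 an adjusted p of 0.0232 to 0.337 in edgeR, past the threshold only without control 2, and the log2 fold change stayed between 1.85 and 2.13. The sum of the 7 markers was 168, 184 and 255 CPM in cKO, against 43.2, 46.3 and 60.3 CPM in controls. Scd3, a fatty acid desaturase of the sebaceous gland, had 2.898, 0.444 and 2.305 CPM in cKO, against 15.4, 39.3 and 16.7 CPM in controls (log2 fold change -3.66, edgeR adjusted p = 0.309, unadjusted p = 0.000393, SE 0.63), while Mc5r, a melanocortin receptor of the same gland, had 12.98, 14.6 and 17.8 CPM in cKO, against 9.36, 11.96 and 11.2 CPM in controls (log2 fold change 0.48, edgeR adjusted p = 0.907, unadjusted p = 0.0396, SE 0.20). The 8 sebocyte markers together had a median of -0.23. The medians were -0.13 for 14 tested skeletal muscle markers, -0.33 for 4 brown and -0.48 for 8 white adipocyte markers, -0.06 for 9 cartilage markers, 0.11 for 8 keratinocyte markers and 0.35 for 10 leukocyte markers, with 0 genes called in each of these lists by edgeR. Without single libraries the muscle median ranged over -0.44 to 0.42 and the cartilage median over -0.20 to 0.12. At an unadjusted p under 0.05 these 6 lists and the sebocyte markers held 5 of 61 tested genes, where 5.33% of all genes passed: Scd3, Mc5r, the brown adipocyte markers Kng2 and Otop1 and the adipocyte lipase Lpl.

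The 2 mitochondrial rRNAs, summed, took 0.0445%, 0.0404% and 0.0426% of counts in cKO, against 0.0744%, 0.0643% and 0.0442% in controls. The groups overlapped between cKO 1 and control 3, and control 2 was nearer to control 1 than to control 3.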
